A study of Nothobranchius furzeri with 6 samples.

Results

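The microRNA families mir-9 and mir-124 (nfu-mir-9 and nfu-mir-124 in the deposited table), both tied to the making of neurons, were followed in 6 small RNA libraries from the brain of the turquoise killifish Nothobranchius furzeri, an annual fish whose short life has made it a model of ageing. They are 2 of the 324 rows of the deposited count table, picked by exact name. All 6 libraries form 1 group: brain of males of the MZM-04/10p strain, aged 39 weeks. Neither a second age nor a second sex, strain or treatment enters, so the data give levels and their spread between libraries, and comparisons with other families inside each library. Nothing in the labels gives a treatment or a brain region, and none states that the libraries are from different fish. The p-values therefore speak only for the spread among these 6 samples.

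MicroRNAs are short RNAs that pair with messenger RNAs through their 5′ seed and lower the output of their targets. In vertebrate brain, miR-9 is made by neural progenitors and by neurons. In mouse and zebrafish it represses regulators that hold progenitors in the stem cell state, among them TLX and Hes/her genes. miR-124 is the classical microRNA of differentiated neurons. In mammals it represses the splicing repressor PTBP1 and parts of the REST pathway, which keeps neuronal genes silent in other cells. The hairpin of miR-9 gives functional RNAs from both arms, and the deposited row does not separate them. Sequences of these families are not printed, since none of the files used here holds them.

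Levels are given as CPM, the count divided by the scaled library total and multiplied by 1e6, with totals scaled by edgeR's TMM factors. Library totals ranged from 11924483 to 16597229 counts. Set beside the tissue label, the neuronal families other than mir-124, led by mir-128, held 9.06% to 13.8% of each library's counts. The lists were chosen with earlier results of these data known, so their shares describe the libraries and do not test the label. The lists of muscle, epithelium, digestive organs, red blood cells and white blood cells (with microglia) each held at most 0.131% in any library. Other lists held more: the endocrine list reached 0.195%, the vessel wall list 1.04% and the list of retina, sensory organs and pineal 1.22%. On the epithelial list, the row named mir-200 was at 0 in all 6 libraries, while mir-8, mir-205 and mir-203 averaged 451.1, 197.4 and 37.0 CPM. This 0 speaks for the row of that name alone. It does not show that miR-200 RNAs were missing, since a row with a different name may hold them. Log2 CPM across the 214 rows with a mean of at least 10 counts correlated between libraries with r of 0.979 to 0.993, a correlation over rows, which are not replicates. No 2 libraries agreed within sampling noise (lowest chi-square over its degrees of freedom 387.5), so none was merged as 1 library deposited again. This does not show that they came from separate fish.

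The family mir-9 was among the most abundant of the brain. It stood at 50634, 49799, 48163, 52740, 53691 and 58086 CPM in libraries 1 to 6. Library 6 was highest and library 3 lowest, only 1.21-fold apart. The mean was 52186 ± 3512 CPM (SD, n = 6), or 5.21% ± 0.190 of all counts. By mean level mir-9 ranked 6th of 324 rows, and it was 5th or 6th in each library. Counts of at least 617918 lay behind each value, and the exact (Clopper-Pearson) 95% interval in library 6 was 57954 to 58217 CPM. Such intervals hold counting error alone: without molecular identifiers, reads need not be independent molecules.

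The family mir-124 was much lower. It stood at 4528, 4106, 4885, 3364, 3423 and 4109 CPM in libraries 1 to 6. Libraries 4 and 5 were lowest and library 3 highest, a 1.45-fold range. The mean was 4069 ± 599 CPM (SD, n = 6), or 0.408% ± 0.0720 of all counts. Its rank by mean level was 24, and its rank in single libraries ran from 22 to 26. Counts of 39413 to 84915 lay behind these values. The exact 95% interval ran from 3331 to 3397 CPM in library 4 and from 4852 to 4918 CPM in library 3, so the range between libraries is wider than counting error.

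**Figure D1:**
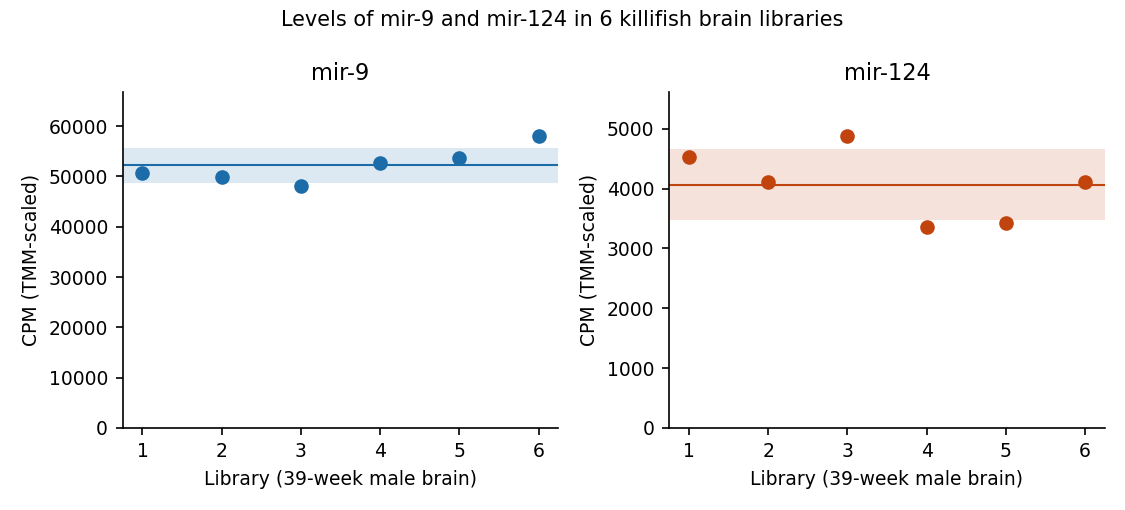
TMM-scaled CPM of mir-9 (left) and mir-124 (right) in each of the 6 libraries; the line is the mean, the band is 1 SD and the error bars, mostly hidden by the points, are exact 95% counting intervals. The mir-9 values run from 48163 to 58086 CPM and the mir-124 values from 3364 to 4885 CPM, with library 3 lowest for mir-9 and highest for mir-124.

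Within each library, mir-9 exceeded mir-124 by 9.86-fold to 15.7-fold. The fold was lowest in library 3 and highest in libraries 4 and 5. The log2 ratio of mir-9 to mir-124 was 3.69 ± 0.27 (mean ± SD, n = 6). It was positive in 6 of 6 libraries, and a two-sided exact permutation test that flips signs by library gave p = 0.03125, the smallest p that 6 libraries allow. A ratio between families mixes abundance with the efficiency at which each RNA takes up the ligated adaptors. That part of the ratio was not measured here.

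The place of mir-9 in the ranking was only partly resolved. Directly above it, lin-4, a family name that also covers miR-125, averaged 53241 ± 3936 CPM. The within-library log2 ratio of mir-9 to lin-4 was -0.03 ± 0.07, and mir-9 was the higher in 3 of 6 libraries (exact permutation p = 0.375, adjusted p = 0.45 over 12 such steps). The differentiation-promoting let-7 and the neuronal mir-128 were above mir-9 in each library. The log2 ratio of mir-9 was -0.76 ± 0.13 to let-7 and -0.30 ± 0.27 to mir-128. Below it, the log2 ratio of mir-9 was 0.57 ± 0.29 to mir-10, 0.88 ± 0.09 to mir-22 and 1.01 ± 0.46 to mir-221, positive in 6 of 6 libraries for each.

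Around mir-124 the ranking was flatter. The neuronal family mir-138 averaged 4234 ± 1267 CPM, and the log2 ratio of mir-124 to it was -0.01 ± 0.62, with mir-124 higher in 3 of 6 libraries. The 3 rows below mir-124 were mir-16 at 3846 ± 586, the endothelial mir-126 at 3816 ± 691 and the neuronal mir-129 at 3803 ± 552 CPM. The log2 ratio of mir-124 to these 3 lay between 0.08 and 0.10, with SDs of 0.22 to 0.32, and mir-124 was higher in 4 or 5 of 6 libraries. These 4 rows thus differed from mir-124 by less than the spread between libraries, with exact sign-flip permutation p-values of 0.344 to 0.906. Above it, the smooth muscle family mir-143 was higher in each library, with a log2 ratio of mir-124 to mir-143 of -0.22 ± 0.10. So was mir-BART15, a row under a viral family name, with a log2 ratio of -0.25 ± 0.20.

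No step passed after adjustment. For the 7 steps seen in all 6 libraries the exact permutation p was 0.03125 and, with 12 steps adjusted for, 0.0536. As 6 libraries allow no smaller p and the remaining steps did not reach it, none of these 7 could pass, whatever its size. These 12 neighbours were picked by the same levels, so the steps describe the order.

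**Figure D2:**
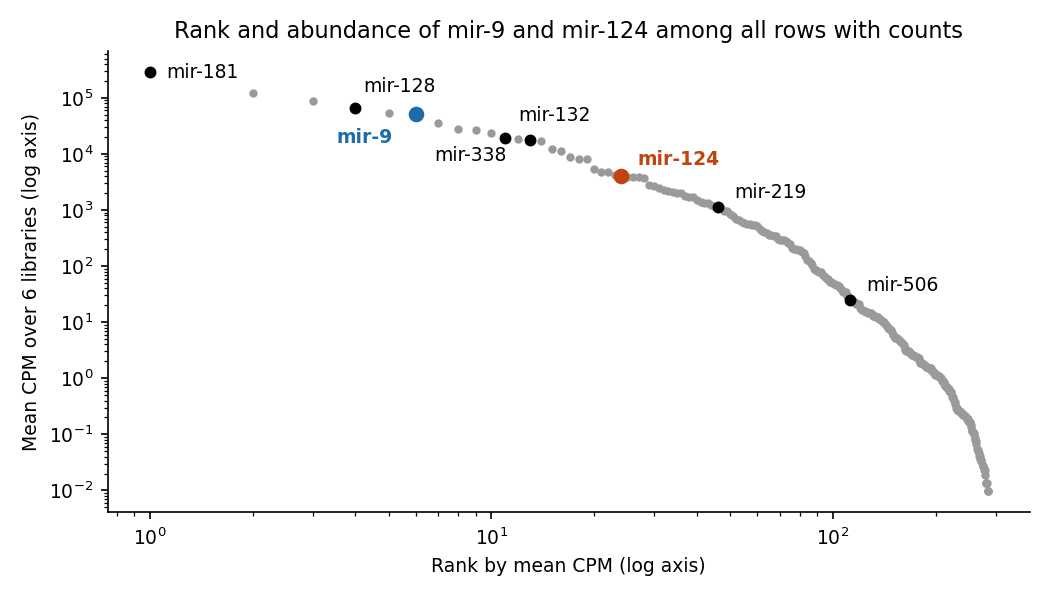
Mean CPM over 6 libraries against rank for every row with counts, both axes logarithmic; mir-9, mir-124 and 6 other rows are labelled. The mir-9 family lies at rank 6 near mir-128, and mir-124 lies at rank 24, below the neuronal mir-132 at 19494 CPM and the oligodendrocyte mir-338 at 17550 CPM.

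Set against other families of neurons, mir-124 stood in the middle by mean level. Of 10 neuronal families listed beside it, 8 had a row of their own name, and 5 of those 8 had a higher mean than mir-124. These were mir-128 at 65311 ± 14644, the activity-regulated mir-132 at 19494 ± 2960, mir-153 at 8708 ± 2179, mir-132b at 5453 ± 650 and mir-138 at 4234 ± 1267 CPM (SD, n = 6). Of the 5, mir-138 was not set apart from mir-124, which was the higher in 3 of 6 libraries. Below mir-124 came mir-129, mir-218 at 1146 ± 203 and mir-137 at 622.1 ± 145 CPM. The log2 ratio of mir-124 to the summed neuronal rows was -4.74 ± 0.44, and that of mir-9 was -1.05 ± 0.20. Most of that sum was mir-128, which made up 59.8% of it.

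Families studied in neural stem cells gave the second list, 14 names of which 11 had a row. Together they held 16.5% ± 0.501 of counts, mostly let-7 at 87977 ± 3406 and lin-4 at 53241 ± 3936 CPM. Next came mir-92, of the growth-promoting miR-17-92 cluster, at 17034 ± 2224 CPM. Of the 11 rows, 2 had a higher mean than mir-9 and 3 a higher mean than mir-124. In mouse, let-7 and miR-9 both repress TLX. The log2 ratio to this list was -1.66 ± 0.09 for mir-9 and -5.35 ± 0.26 for mir-124. The rows mir-137, mir-7 and mir-184 stand on this list and on another one too.

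Against families of other cells, the positions of mir-9 and mir-124 parted. mir-9 exceeded the summed oligodendrocyte rows (mir-338 and mir-219) by a log2 ratio of 1.48 ± 0.13, while mir-124 lay below that sum at -2.21 ± 0.27. Of the sum, 93.8% was mir-338, and mir-219, at 1145 CPM, had a lower mean than mir-124. The summed vessel wall rows (mir-143, mir-126 and mir-145) lay below mir-9, at a log2 ratio of 2.57 ± 0.26, and above mir-124, at -1.12 ± 0.13. Singly, only mir-143 had a higher mean than mir-124. The same held for the summed rows of retina, sensory organs and pineal, with 2.27 ± 0.15 for mir-9 and -1.42 ± 0.17 for mir-124. Of these rows, only the leading mir-204 had a higher mean than mir-124. Both mir-9 and mir-124 exceeded the sums for muscle, epithelium, digestive organs, endocrine tissue and each of the blood cell lists. For mir-124 these log2 ratios ran from 1.89 ± 0.27 for muscle to 5.64 ± 1.07 for digestive organs. For mir-9 they ran from 5.58 ± 0.36 for muscle to 9.33 ± 1.23 for digestive organs.

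All 22 ratios had 1 sign in 6 of 6 libraries, with an exact sign-flip permutation p and an adjusted p of 0.03125. The adjusted p equals the smallest possible value only because every ratio reached it, so it does not tell large ratios from small ones. A sum grows with the number of rows on a list. Set against the highest single row of each list, every negative ratio stayed negative. The positive ratios could not change sign there, as no row exceeds the sum of its list. In whole brain, fewer cells of a type and less RNA per cell cannot be told apart.

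**Figure D3:**
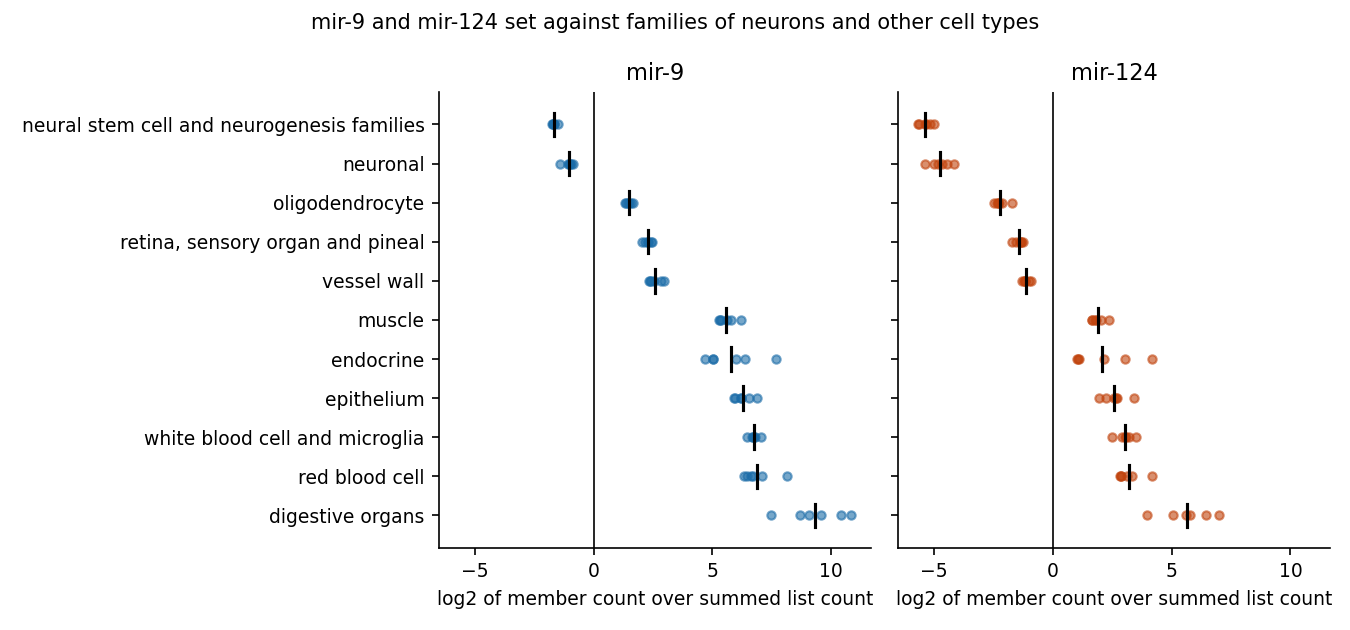
Log2 of the count of mir-9 (left) or mir-124 (right) over the summed counts of each list of families, 1 point per library, with the mean as a black bar. Points right of 0 mean that the family exceeds the list: mir-9 lies right of 0 for 9 of 11 lists and mir-124 for 6 of 11.

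Neither mir-9 nor mir-124 was called as varying between libraries beyond the dispersion trend that edgeR fitted at their abundance. In edgeR's goodness-of-fit test of an intercept-only negative binomial model at the trended dispersion, both had an adjusted p of 0.9999. The deviance per degree of freedom was 0.051 for mir-9 and 0.21 for mir-124. Over the whole table, 8 of 214 tested rows (3.74%) were called at an adjusted p under 0.05. DESeq2 flagged 3 rows (1.4%) as dispersion outliers, and neither family was among them. Against counting noise alone, by a Poisson index of dispersion, both families were among the 82.7% of tested rows that were called. edgeR's biological coefficient of variation, a shrunken estimate per row, was 0.180 for mir-9 and 0.224 for mir-124, against 0.294 and 0.322 on the trend at their levels. That trend is a wide yardstick: mir-221, with a plain coefficient of variation of 33.3% between libraries, was not called either. None of the 8 neuronal rows and none of the 11 neural stem cell rows was called either. The endocrine list had 1 called row, mir-375, and the digestive list had 1, mir-192.

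The spread itself differed between mir-9 and mir-124. The SD of log2(CPM + 1) between libraries was 0.095 for mir-9 and 0.21 for mir-124, against a median of 0.27 over the 214 tested rows. Of these rows, 10 had a smaller SD than mir-9 and 75 a smaller one than mir-124. The 1 added to CPM shrinks this SD in rows of few CPM, and with it the median. Some such rows had a smaller SD than mir-124 but a larger coefficient of variation. Among the 47 rows with a mean of at least 1000 CPM, where the median SD was 0.18, 7 were steadier than mir-9 and 27 steadier than mir-124. The coefficient of variation was 6.73% for mir-9 and 14.7% for mir-124, and counting error alone gives at most 0.127% for mir-9 and 0.504% for mir-124 in any library. The SDs in CPM depended on scaling. Without scaling factors they were 1904 for mir-9 and 720 for mir-124, against 3512 and 599 with TMM. Whether the spread differs between mir-9 and mir-124 was not tested.

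**Figure D4:**
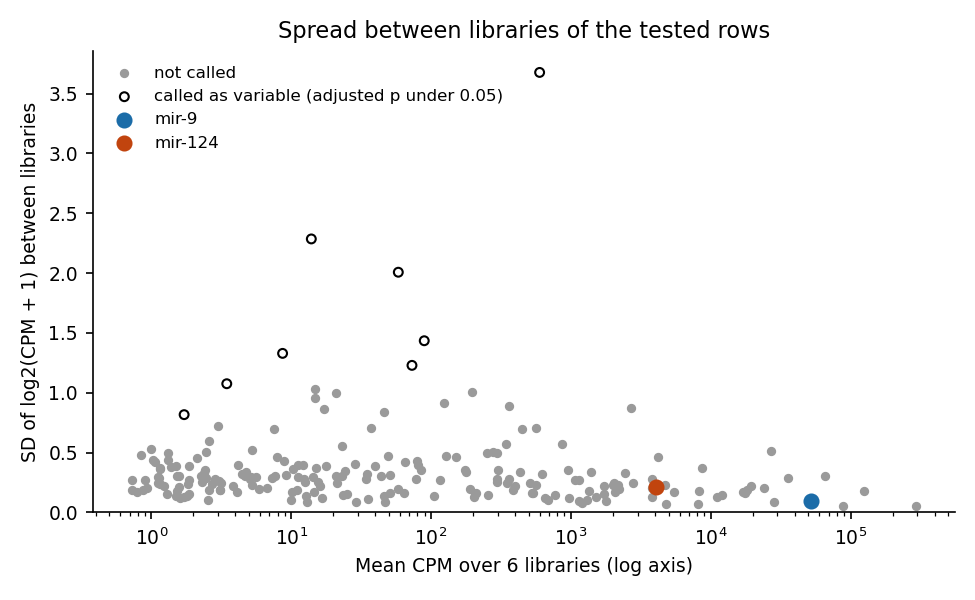
SD of log2(CPM + 1) between the 6 libraries against mean CPM (log axis) for the 214 tested rows; open circles are the 8 rows called as variable. The mir-9 point, at an SD of 0.095, lies near the foot of the cloud, while mir-124, at 0.21, is below the median of 0.27 over all tested rows but above the median of 0.18 over rows of at least 1000 CPM.

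Levels of mir-9 and mir-124 were not shown to move together. Over 6 libraries, log2 CPM of mir-9 and mir-124 had Pearson's r = -0.49 (exact permutation p = 0.329, or 0.411 adjusted over 5 pairs). Spearman's rho was also -0.49, with an exact p of 0.356 and an adjusted p of 0.444. Without the 2 libraries farthest from the median of mir-9, r was -0.86. Leaving out library 6 gave r = -0.92 (exact permutation p = 0.05) and leaving out library 3 gave r = -0.20 (exact permutation p = 0.817), so the size of r rests on single libraries.

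The summed neuronal rows ran opposite to mir-124 but short of the threshold. Pearson's r was -0.86 (exact permutation p = 0.0222, adjusted p = 0.111). Spearman's rho was -0.83, with an exact p of 0.0583 and an adjusted p of 0.257. Dropping the 2 libraries farthest from the median of mir-124 gave r = -0.94. In library 3, where mir-124 was highest, the neuronal list was lowest at 9.06% of counts. In library 4, where mir-124 was lowest, that list was highest at 13.8%. The mir-128 row, 59.8% of that sum, stood at 49364 CPM in library 3 and at 92541 CPM in library 4. The list was not uniform: mir-129 was highest in library 3, at 4527 CPM, and stood at 3301 CPM in library 4. The remaining rows of the list were, like mir-128, lower in library 3 than in library 4. Single rows of the list were not tested against mir-124. With mir-128 taken out of the list r was -0.77 (exact permutation p = 0.0778, adjusted p = 0.194). With mir-181 left out of the library totals, r was -0.91 and the adjusted p was 0.0417 (exact permutation test), the 1 setting that passed. That p ranged from 0.0417 to 0.417 over the 10 alternatives.

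For mir-9 and the same list r was 0.59 (exact permutation p = 0.207, adjusted p = 0.411) and 0.57 once the 2 farthest libraries were dropped. The rank correlation (Spearman's) was 0.77, with an exact p of 0.103 and an adjusted p of 0.257. Without mir-128 in the list, r was 0.87 (exact permutation p = 0.0222, adjusted p = 0.111). The largest row then left is mir-132, which is picked below for its likeness to mir-9, so that list repeats the choice in part. Other alternatives lowered r, to 0.24 without scaling factors, 0.29 with mir-181 left out of the library totals and 0.35 without library 3. All 10 alternatives lay between 0.24 and 0.87, and none passed after adjustment. With the oligodendrocyte rows, mir-9 had r = 0.55 (exact permutation p = 0.26, adjusted p = 0.411), which became -0.85 once the 2 farthest libraries were dropped. The rank correlation (Spearman's) was 0.49, with an exact p of 0.356 and an adjusted p of 0.444. With those rows, mir-124 had r = -0.07 (exact permutation p = 0.914, also after adjustment), which became -0.82 once the 2 farthest libraries were dropped. The rank correlation (Spearman's) was 0.03, with an exact p of 1.0 before and after adjustment. Neither relation with the oligodendrocyte rows held its value without the 2 libraries farthest from the median.

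As a description, the rows most like each family over the 6 libraries were ranked by Pearson's r of log2(CPM + 1) among the 213 other tested rows. The extremes of so many values over only 6 libraries are large in part through their selection, and none was tested. For mir-9 the most alike rows were mir-26 (r = 0.96), mir-132 (r = 0.93) and mir-558 (r = 0.86, at a mean of 0.876 CPM). The mir-26 row stood at 113343, 114387, 105300, 132320, 133562 and 145229 CPM in libraries 1 to 6. As with mir-9, library 6 was highest and library 3 lowest. The mir-132 row stood at 16875, 17608, 16274, 21745, 21010 and 23450 CPM, with the same highest and lowest libraries.

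Least like mir-9 were mir-214 (r = -0.996), mir-11 (r = -0.96) and mir-883 (r = -0.95). The mir-214 row was low, at 12.5, 12.6, 14.3, 10.5, 10.1 and 7.52 CPM in libraries 1 to 6. Its highest value fell in library 3 and its lowest in library 6. The TMM factor was likewise largest in library 3, at 1.05, and smallest in library 6, at 0.958. Without scaling factors, r with mir-9 was 0.84 for mir-26, 0.77 for mir-132 and -0.91 for mir-214.

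For mir-124 the most alike rows were mir-135 (r = 0.93), mir-143 (r = 0.89) and mir-549 (r = 0.89). The mir-135 row stood at 4915, 2027, 4801, 1434, 1190 and 1898 CPM in libraries 1 to 6, high in libraries 1 and 3 and lowest in libraries 4 and 5. The mir-143 row stood at 5568, 4758, 5124, 3938, 3790 and 5279 CPM, again lowest in libraries 4 and 5. Least alike were mir-210 (r = -0.95), mir-8 (r = -0.93) and the neuronal mir-132b (r = -0.91). The mir-132b row reached 6213 CPM in library 4 and 6043 CPM in library 5, while the other 4 libraries lay between 4615 and 5742 CPM. Without scaling factors these 6 values of r ran from -0.97 to 0.95 with the same signs.

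Markers of some other cells were low in the libraries where mir-124 was low, and those of others were not. The vessel wall list held 0.732% and 0.669% of counts in libraries 4 and 5, against 0.953% to 1.04% in the other 4 libraries. Of this list, 53.7% was mir-143, a row already picked for its likeness to mir-124, so the list repeats that choice in part. The endothelial row mir-126 had 3362 CPM in library 4, 2718 CPM in library 5 and 3714 to 4487 CPM elsewhere. The remaining row, mir-145, did not share this order: it stood at 323.3, 223.5, 375.1, 151.0, 360.6 and 226.3 CPM in libraries 1 to 6, lowest in library 4 but second highest in library 5.

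The red blood cell list held 0.0380% and 0.0186% in libraries 4 and 5, against 0.0507% to 0.0643% in the others. Its main row, mir-451, had 270.2 CPM in library 4 and 159.2 CPM in library 5, against 384.5 to 461.6 CPM elsewhere. Its other row, mir-144, had 116.9 CPM in library 4 and 32.2 CPM in library 5, but only 97.1 CPM in library 3, where mir-124 was highest. The white blood cell list was lowest in library 4, at 0.0398%, and highest in library 5, at 0.0589%. The epithelial list was highest in library 4, at 0.0867%, and lowest in library 1, at 0.0440%. In libraries 4 and 5 the endocrine list held 0.158% and 0.163%, against 0.0259% to 0.195% elsewhere. The muscle list held 0.0952% and 0.106% there, against 0.0763% to 0.131%. For retina, sensory organs and pineal it was 0.968% and 1.07%, against 1.03% to 1.22%. For digestive organs it was 0.00685% and 0.00383%, against 0.00306% to 0.0299%. The oligodendrocyte list, whose correlation with mir-124 is given above, held 1.85% and 1.66%, against 1.67% to 2.06%. The part of these cells in the mir-124 values was not tested.

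**Figure D5:**
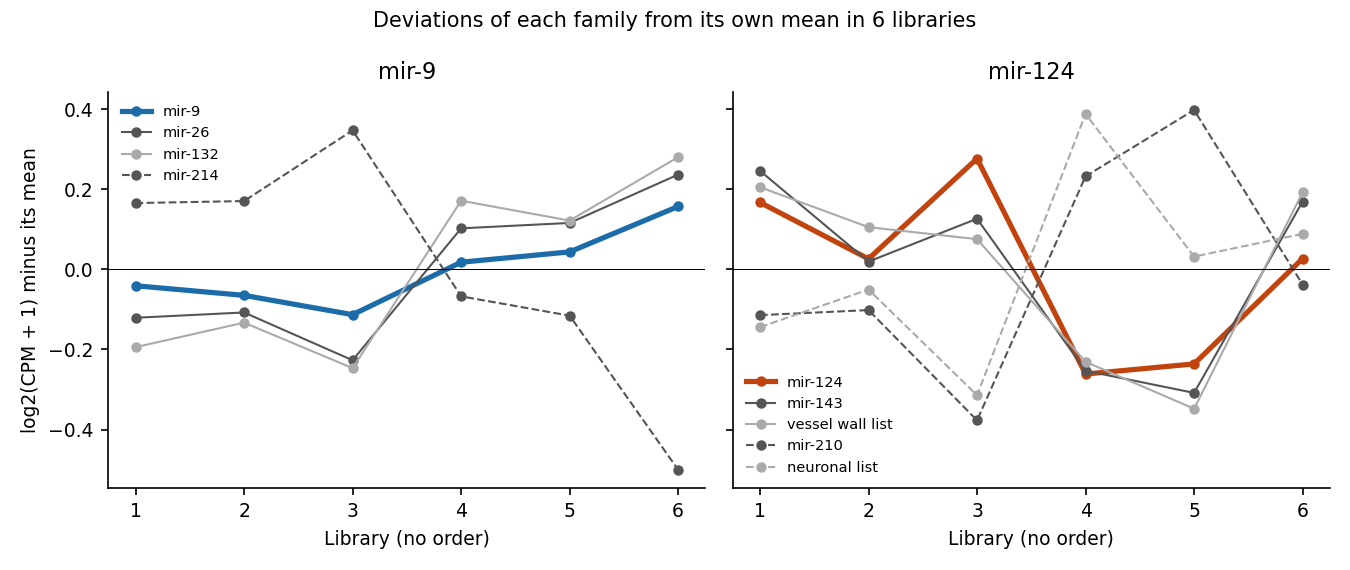
Deviation of log2(CPM + 1) from its mean in each library for mir-9 (left) and mir-124 (right). Thin solid lines are some of the most alike rows and the vessel wall list. Dashed lines are some of the least alike rows and the neuronal list. The lists were not ranked for likeness, and mir-135, the row most like mir-124, is not drawn. Lines only join the points, as libraries have no order. The mir-9, mir-26 and mir-132 rows are lowest in library 3 and highest in library 6, and mir-124, mir-143 and the vessel wall list are all lower in libraries 4 and 5 than in the others.

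Rows that could share reads or a seed with these families were also looked up. Of 5 such names, mir-79, mir-4, mir-9b, mir-124b and mir-506, only mir-506 had a row. In mammals miR-506 carries the same seed as miR-124. Its row held 293, 338, 535, 275, 288 and 314 counts in libraries 1 to 6, or 25.0 ± 2.97 CPM (SD, n = 6). That was 0.621% ± 0.0681 of the mir-124 count, between 0.526% in library 1 and 0.698% in library 4. Both rows were highest in library 3, and with r = 0.66 mir-506 was 18th of 213 rows in likeness to mir-124. Adding mir-506 to mir-124 would therefore move the level of mir-124 by less than its spread between libraries. Whether any reads were shared between the 2 rows is not known, because no source used here says how reads matching several places were treated.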

How the data were processed

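Small RNA from 6 killifish brain samples was sequenced after library preparation with Illumina's TruSeq small RNA kit, per the labels' protocols. The authors deposited raw counts, whole numbers for 324 features (235 named families, 89 predicted) in 1 column per library, not split by arm. The submitters' processing notes name BWA 0.7.12-r1039, Trimmomatic 0.36, SAMtools 1.3.1-9 and bcl2fastq 1.8.4, with no role for any. For the genome build, the annotation and multiply matching reads, the procedure is not given in the sources used here. Because the kit's ligation step favours some sequences, its bias enters every ratio between families.

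Libraries are numbered in accession order, as names only. Counts were scaled with TMM in edgeR 4.0.16 (R 4.3.3). Log2 values add 1 to CPM, and ratios of counts add 0.5. The 214 rows with a mean of at least 10 counts were tested for variation by edgeR's goodness of fit at the trended dispersion, adjusted by Benjamini-Hochberg over all of them. Ratios and correlations used exact permutation tests over libraries (720 pairings), in Python 3.11.15 with NumPy 2.4.6. Intervals are from SciPy 1.17.1. DESeq2 1.42.0 size factors and dispersions were alternatives, beside plain CPM, other totals, other filters and left-out libraries. Rows named are both families, 3 neighbours on each side in the ranking, the 3 most and 3 least alike, up to 4 examples per list, and 5 look-alike names. The remaining neuronal rows, mir-7, mir-137, mir-184 and the rows at 0 were named after their values were seen. The members and lists were chosen with earlier results of these data known.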

Additional observations from a re-analysis of the deposited data

Results flagged for a closer look

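Of 30 levels, shares and ratios checked for a library far from the other 5 by Dixon's criterion for 6 values, 3 stood apart. Chance flags about 1 in 20. The share of mir-9 was 5.57% of counts in library 6, against 5.04% to 5.23% in the others. As TMM-scaled CPM it was 58086 in library 6, against 48163 to 53691, and did not pass the criterion. The mir-506 level was 30.8 CPM in library 3, against 22.9 to 25.6 CPM, with an exact 95% interval of 28.2 to 33.5 CPM in library 3. The digestive organ list held 0.0299% of counts in library 1, against 0.00306% to 0.0124% in the others.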

How the results depend on the processing

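With mir-181 left out of the library totals, mir-9 averaged 73691 CPM and mir-124 averaged 5764 CPM, because the totals shrank. The other scalings and totals, the median and left-out libraries moved neither mean by 1 SD. A median, or a mean without 1 library, cannot lie that far from the mean, whatever the values. The log2 ratio of mir-9 to mir-124 lay between 3.64 and 3.77 without any 1 library. With 5 libraries the smallest sign-flip p is 0.0625, so its call, and the count of list ratios passing (0 in each case), could not pass then. The number of variable rows was 177 by a Poisson index of dispersion and 3 as DESeq2 dispersion outliers, against 8. By the Poisson index both families exceeded counting noise, with 3252 per degree of freedom for mir-9 and 1205 for mir-124. In the other 12 settings neither was called.

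The log2 ratio of mir-124 to mir-138 turned positive without library 2 (0.0032), 4 (0.10) or 5 (0.15), and was lowest without library 6 at -0.16. That of mir-124 to mir-16 turned negative without library 3 (-0.019) and reached 0.17 without library 4. The correlation of mir-124 with the oligodendrocyte rows turned positive without scaling factors (0.15), without mir-181 (0.048) and without library 3 (0.75), its lowest being -0.39 without library 5. The cause was not tested. Alternatives for the correlations with lists and for likeness were chosen after seeing the data. No paired analysis was possible because there is 1 group.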
